A study of Mus musculus with 60 samples.

Results

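Voltage-gated sodium channels open when the membrane depolarises and carry the rising phase of the neuronal action potential. Each channel has 1 large alpha subunit, which forms the pore, and smaller beta subunits, which span the membrane once, carry an immunoglobulin-like domain outside the cell, and adjust gating and the placement of the channel at the axon initial segment and the nodes of Ranvier. The 6 genes described here are the alpha subunit genes Scn8a, Scn1a and Scn3a and the beta subunit genes Scn4b, Scn2b and Scn3b. They were chosen by gene symbol among 47574 gene entries measured by RNA-Seq in 60 mouse brain libraries. Other genes that encode sodium channel subunits were given as a separate list or were not analysed here.

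The libraries were labelled as cortex or striatum of C57BL/6N mice aged 3 months from a pair of lines made by CRISPR/Cas9 in C57BL/6 embryonic stem cells. In the Δ12 line, part of exon 12 of the endogenous Htt gene was deleted and a new splice donor was made. In the KO line, derived from a founder with failed repair, a larger deletion removed the donor of that exon. Of the Δ12 line, mice of the genotypes +/+, Δ12/+ and Δ12/Δ12 were used, and of the KO line those that were +/+ or KO/+, each group with 3 males and 3 females per labelled tissue. The labels name no treatment and no other allele, and the KO allele came from 1 founder. The labels number the replicates within each sex and give no separate statement on animals, so p-values measure the spread between these libraries. Relevant levels are FPKM (fragments per kilobase of transcript, adjusted for library size) divided by a median-of-ratios factor per library, called scaled FPKM, and they are comparable between genes because FPKM is per length.

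The labels went against the transcripts in many libraries, and every group below is therefore a group of libraries labelled as stated. Slc17a7, the vesicular glutamate transporter of cortical excitatory neurons, split the libraries at 100 FPKM into 30 cortex-like libraries, with 104 to 197 scaled FPKM, and 30 striatum-like libraries, with 5.60 to 69.6. Drd2, the dopamine D2 receptor of striatal projection neurons, ranged from 0 to 15.9 scaled FPKM in the former and from 34.8 to 71.3 in the latter. Each class held 15 libraries labelled cortex and 15 labelled striatum. The cortex-like class held all Δ12-line libraries labelled +/+ and Δ12/+ and the males labelled Δ12/Δ12, and the striatum-like class held the females labelled Δ12/Δ12 and the whole KO line. The levels of Xist and Ddx3y went against the labelled sex in 30 of 60 libraries. Htt, the edited gene, was at or above the lowest +/+ library in 3 of the 6 libraries labelled striatum KO/+ and in 3 of the 6 labelled cortex KO/+. Since the classes were defined by expression, values between them are a description without a test. In bulk tissue, fewer cells of a type and less RNA per cell cannot be told apart.

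In the annotation of the files, which use GRCm38 coordinates, Scn2b (chr9:45117876-45130070) and Scn4b (chr9:45138437-45154152) lay on the plus strand of the same chromosome, 8.37 kb apart with no annotated gene between them. Scn3b (chr9:40269216-40291618, plus strand) was on that chromosome too. Scn1a (chr2:66270778-66440840) and Scn3a (chr2:65457118-65567627) were on the minus strand of chromosome 2, and Scn8a (chr15:100869858-101045938) was on the plus strand of chromosome 15. The alpha subunit genes spanned 110.5 to 176 kb with up to 27 exons in a transcript. The beta subunit genes spanned 12.2 to 22.4 kb with up to 5 exons in Scn2b and Scn4b and up to 7 in Scn3b. Each of Scn1a, Scn3a, Scn2b and Scn3b overlapped a gene on the other strand. The library kit kept the strand, whether the FPKM estimates used it is not given in the sources used here, and of those partners Gm13630, Gm13595 and Gm10684 had medians below 0.1 scaled FPKM over the libraries.

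The bases just upstream of the annotated start are shown for the neighbouring pair Scn2b and Scn4b, whose levels differed most between the classes, and for Scn1a, the member that differed most by genotype within the KO line. They were taken from RefSeq on GRCm38.p6, 5′ to 3′ on the gene's strand, and end at the base before the GENCODE M21 start. Capitals mark the CAAT box letters CCAAT.
Scn2b (chr9:45117626-45117781, plus strand): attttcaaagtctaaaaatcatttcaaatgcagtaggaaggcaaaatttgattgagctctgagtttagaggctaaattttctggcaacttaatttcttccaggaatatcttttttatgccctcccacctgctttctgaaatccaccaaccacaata
Scn4b (chr9:45138374-45138394, plus strand): gtcgtccgcagcgggcaagcc
Scn1a (chr2:66440841-66441087, minus strand): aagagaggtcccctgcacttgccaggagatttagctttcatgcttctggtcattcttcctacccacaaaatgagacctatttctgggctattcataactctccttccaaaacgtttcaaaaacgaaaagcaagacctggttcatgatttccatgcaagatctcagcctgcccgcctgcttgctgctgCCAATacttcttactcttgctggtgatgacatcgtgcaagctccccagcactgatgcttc
RefSeq windows of 250 bases were read on both strands for Scn1a, Scn2b, Scn4b and 2 starts of Scn8a. Of these bases, 247, 156, 21, 0 and 0 lay before the GENCODE M21 start, and the rest lay inside the annotated gene. The window of Scn2b was 38.4% G and C, that of Scn4b 66.0%, that of Scn1a 46.8% and those of Scn8a 68.0% and 53.2%, against a median of 52.4% over all promoters. CCAAT was found 1 time in Scn1a, 1 time in Scn4b and 0 times in Scn2b and Scn8a, and it is in 33.8% of the 32851 promoters. The match in Scn4b was not within the bases printed above. None of the 5 windows held GGGCGG (32.7% of promoters), TATAAA (12.4%), TGACGTCA (1.55%) or CAGCTG (13.0%). These matches describe letters and no binding. Scn3a and Scn3b had no entry.

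Between the classes, 3 of the 6 genes had ranges that did not overlap, and all 3 were higher in the striatum-like libraries. Of 16076 entries, 36.2% had ranges that did not overlap in either direction and 19.3% were higher in the striatum-like class in this way. The 3 genes were Scn4b, Scn2b and Scn3a, so that both roles, pore and auxiliary, were among them. The others, Scn8a, Scn1a and Scn3b, overlapped and had medians within 1.18-fold of each other between classes. The median entry differed by a log2 of 0.025 between classes on this scale and by −0.18 on FPKM as deposited.

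**Figure D1:**
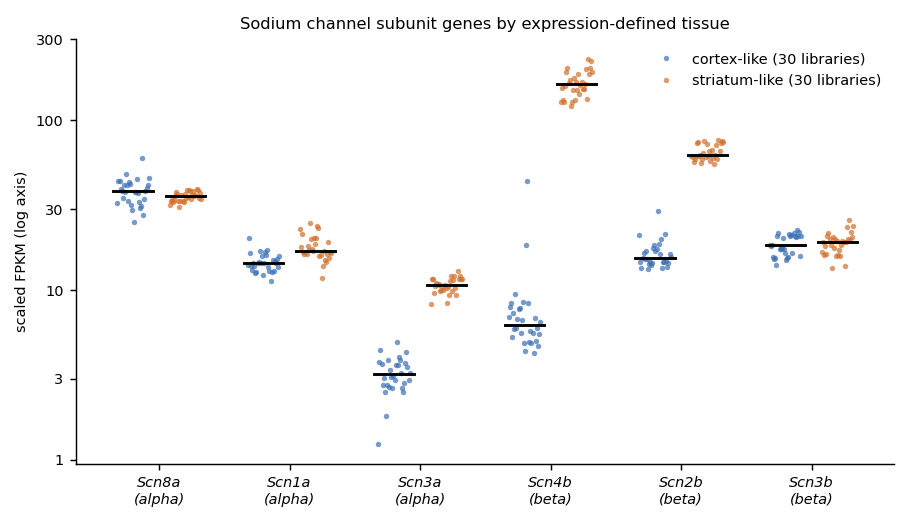
Scaled FPKM (log axis) of the 3 alpha and 3 beta subunit genes in 30 cortex-like and 30 striatum-like libraries. Points are libraries and bars are medians. Scn4b, Scn2b and Scn3a lie apart in the 2 classes, with medians of 6.24 and 163, 15.4 and 62.2, and 3.19 and 10.8, whereas Scn8a, Scn1a and Scn3b overlap.

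Among the 3 alpha members, Scn8a, which encodes the main channel of the mature initial segment and node, had the highest level in both classes. Its scaled FPKM ran from 25.3 over a median of 38.2 to 59.8 in the cortex-like libraries and from 30.9 over 35.7 to 39.6 in the striatum-like libraries. The striatum-like values lay inside the cortex-like range, with a CV of 6.49% against 18.3%. On FPKM as deposited 13 of the 30 were below that range, and the ratio of medians was 0.745 in place of 0.933. Scn1a, which encodes the channel prominent in fast-spiking interneurons, ran from 11.4 over 14.4 to 20.3 and from 11.8 over 17.0 to 24.8. Of the 30 striatum-like libraries, 6 were above the cortex-like range and 24 were in it. On FPKM as deposited the ratio of the class medians of Scn1a turned from 1.18 to 0.914.

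Scn3a, which encodes a channel known for its high level in the embryonic brain, was the lowest member in both classes. It ran from 1.23 over 3.19 to 4.97 scaled FPKM in the cortex-like and from 8.27 over 10.8 to 13.0 in the striatum-like libraries, a ratio of medians of 3.37. No striatum-like library was as low as the highest cortex-like one. Of the summed level of the 3 alpha genes, with medians of 57.3 and 64.0, Scn8a made up a median of 67.7% in the cortex-like and 55.8% in the striatum-like libraries. The share of Scn3a was 5.71% and 16.8%, and that of Scn1a was 26.1% and 27.3%. The authors' confidence intervals for Scn3a had a median half-width of 19.5% of the value in the cortex-like class, the widest of the members, and of 7.54% in the striatum-like class.

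Scn4b showed the greatest difference between the classes. It encodes the beta subunit whose cytoplasmic tail can block the open channel and which is known for its abundance in striatal projection neurons. Its scaled FPKM ran from 4.29 over 6.24 to 44.1 in the cortex-like and from 121 over 163 to 230 in the striatum-like libraries, a ratio of medians of 26.1. The cortex-like values were uneven, with a CV of 90.8%, and 28 of the 30 were below 10. The library labelled striatum Δ12/+ male 3 had 44.1 and that labelled striatum Δ12/+ male 2 had 18.4. The former also had the highest Scn2b (29.3), Scn3a (4.97), Drd1 (18.9), Drd2 (15.9) and Ppp1r1b (206) and the lowest Slc17a7 (104) of the cortex-like class. Their part in the result was not tested. Without that library the cortex-like range of Scn4b was 4.29 to 18.4 and the ratio of medians 27.3.

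Scn2b, whose product binds the alpha subunit through a disulfide bond, ran from 13.3 over 15.4 to 29.3 scaled FPKM in the cortex-like and from 55.6 over 62.2 to 76.8 in the striatum-like libraries. The lowest striatum-like library was thus well above the highest cortex-like library, and the ratio of medians was 4.04. Scn3b, whose product binds the alpha subunit without such a bond, ran from 14.1 over 18.4 to 22.5 and from 13.6 over 19.3 to 25.9. These ranges covered nearly the same levels, and the ratio of medians turned from 1.05 to 0.793 on FPKM as deposited. The summed level of the 3 beta genes had a median of 41.0 in the cortex-like and 244 in the striatum-like class. Scn3b was the largest part of it in the cortex-like libraries (median 44.6%) and Scn4b in the striatum-like libraries (median 66.3%). The share of Scn2b was 37.2% and 26.0%.

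The order of the 6 genes therefore differed between the classes. In the cortex-like libraries the medians fell from Scn8a through Scn3b, Scn2b, Scn1a and Scn4b to Scn3a. Scn8a was above Scn3b in all 30 libraries without overlap of their ranges, and Scn4b was above Scn3a in all 30 with overlap. Scn3b and Scn2b kept this order in 20 libraries, as did Scn2b and Scn1a. The ranges of these neighbours overlapped, and their difference was not tested. In the striatum-like libraries the order was Scn4b, Scn2b, Scn8a, Scn3b, Scn1a and Scn3a. The first 4 kept their order in all 30 libraries without overlap, whereas Scn3b was above Scn1a in 23.

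Of the other genes of the channel complex, the 7 further alpha-like genes had lower class medians than Scn8a. Nalcn, the sodium leak channel, had class medians of 25.7 and 14.8 scaled FPKM in the cortex-like and striatum-like libraries, and Scn7a, whose product senses sodium, had 0.914 and 0.143, both without overlap. Scn9a, best known from sensory neurons, had 0.209 and 0.705, without overlap on this scale but not on FPKM as deposited, and the ranges of the other 4 overlapped. The 4 FGF homologous factors, which bind the cytoplasmic tail of alpha subunits, had higher striatum-like medians, 1 of them without overlap (Fgf11, 1.41 and 5.60). On FPKM as deposited the ratio of medians of Fgf12 turned from 1.02 to 0.784. Of 11 initial segment and node proteins, 8 were higher in the striatum-like class without overlap, beside 19.3% of all entries. On FPKM as deposited this held for 5, and 1 (Nrcam) was lower without overlap. Ank3, which encodes ankyrin G, the anchor of sodium channels, had medians of 60.6 and 165, Sptbn1, a beta spectrin, 35.7 and 116, and Nfasc, the adhesion molecule neurofascin, 10.8 and 40.1.

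Markers other than Slc17a7, which defined the classes, also differed between them. The summed level of 8 striatal projection markers was 75.7 to 437 in the cortex-like and 848 to 1748 in the striatum-like libraries, and all 8 had ranges that did not overlap. Of the 6 cortical excitatory markers other than Slc17a7, 5 had higher cortex-like medians, 1 of them without overlap (Mef2c). Mbp, myelin basic protein of oligodendrocytes, had medians of 383 and 980, and Pvalb, parvalbumin of fast-spiking interneurons, had 76.5 and 26.4. Of the 4 oligodendrocyte markers, 3 had higher striatum-like medians, and Mog went the other way (42.3 and 31.5). Of the 4 interneuron markers, 3 had higher cortex-like medians, and Gad1 went the other way (73.2 and 153). Choroid plexus markers summed to 1.63 to 374 and to 31.7 to 2074. The cell type makeup behind the members' levels was not tested.

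**Figure D2:**
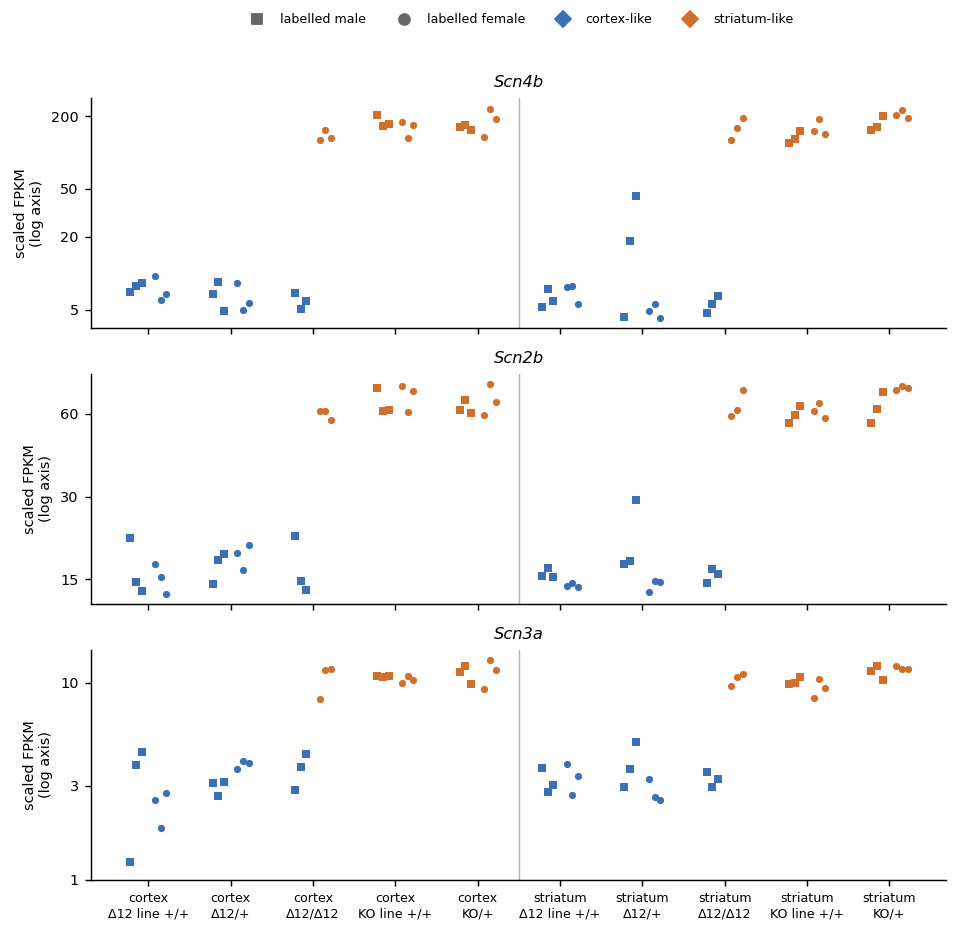
Scaled FPKM (log axes) of Scn4b, Scn2b and Scn3a in the 10 labelled groups of 6 libraries, with squares for labelled males, circles for labelled females and colour for the expression-defined class. In the groups labelled Δ12/Δ12 the 3 males lie with the cortex-like and the 3 females with the striatum-like libraries, and the 2 labelled tissues do not separate. The highest cortex-like point of Scn4b is 44.1.

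The first comparison by label was that of the tissues, and none of the 6 genes was called. With limma across all 60 libraries, with group of line and genotype and sex as covariates, 0% of 16076 entries had an adjusted p under 0.05 between labelled striatum and labelled cortex, and 393 had an unadjusted p under 0.05. Of the members, Scn3b alone was among these, with a log2 fold change of −0.11 (adjusted p = 1.0 in limma). Scn4b differed by a log2 of 0.05, with a 95% interval from −0.51 to 0.61.

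The comparison of Δ12/Δ12 with +/+ mice asked whether the shortened huntingtin changes expression. In libraries labelled striatum, Scn4b, Scn2b and Scn3a were called higher, beside 28.7% of 15467 entries. Scn4b was 4.69, 5.54 and 6.51 scaled FPKM in the Δ12/Δ12 males, 128, 159 and 194 in the females, and 5.29 to 7.84 in the 6 +/+ libraries. Only the females were above the +/+ range, and they were the striatum-like libraries. Its log2 fold change was 2.13 (SE 0.69, adjusted p = 0.044 in limma). Scn2b was 14.5, 16.4 and 15.6 in the males, 59.1, 62.0 and 73.4 in the females, and 14.1 to 16.5 in +/+ (log2 1.06, SE 0.33, adjusted p = 0.041). Scn3a was 3.51, 2.95 and 3.24, 9.57, 10.6 and 11.0, and 2.69 to 3.88 (log2 0.78, SE 0.25, adjusted p = 0.042). These 3 calls ended without the sex term (adjusted p = 0.13 to 0.14 in limma), with no filter on low values (0.066 to 0.070) and with sex taken from Xist and Ddx3y (0.072 to 0.074), a fit chosen after the data were seen. Over all entries, the main fit called 4443 of 15467, and these fits, in order, called 9 of 15467, 1412 of 26461 and 7 of 15467. Scn4b alone was called on FPKM as deposited (adjusted p = 0.047 in limma), beside 4391 of 15663 entries. Each call was lost in 6 of the 12 fits that left out 1 library, namely those without a labelled female. The pattern was the same in each gene: males within or beside the +/+ range and females above it.

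With the class as a further covariate, the log2 fold changes in labelled striatum were −0.14 for Scn4b, −0.02 for Scn2b and 0.04 for Scn3a. In that fit 0 members (adjusted p = 0.78, 0.94 and 0.94 in limma) and 19 of 15467 entries were called. The class term took up the Δ12/Δ12 females, the only striatum-like libraries there, and labelled males alone estimated the genotype. The fit therefore could not test the difference of the females. Striatal projection markers rose with the members in the first fit, 5 of 8 called higher. Of 7 cortical excitatory markers, 3 were called lower and 1 higher. In labelled cortex, 0 members were called beside 0.79% of 15696 entries, although 4 members and 6003 entries had an unadjusted p under 0.05. Scn3a had the smallest p (log2 1.12, adjusted p = 0.067 in limma), with 2.84, 3.72 and 4.34 scaled FPKM in the Δ12/Δ12 males, 8.27, 11.6 and 11.7 in the females and 1.23 to 4.46 in +/+. Its value with the class as covariate, again estimated from labelled males alone, was 0.29. Scn4b was 6.88, 5.04 and 5.95 in the males, 128, 155 and 131 in the females and 5.97 to 9.47 in +/+, and Scn2b was 21.5, 14.8 and 13.7, 61.4, 61.3 and 56.8, and 13.3 to 21.2. As in labelled striatum, the 3 females stood apart from the other 9 libraries. Without the library labelled cortex +/+ male 2, 3 members were called there. The share of all entries called in that fit is not given here, so this count is not read as a result about the members.

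Tests of whether the change differed between labelled sexes called Scn4b, Scn2b and Scn3a in labelled striatum, beside 55.9% of entries, and these with Scn1a in labelled cortex, beside 44.2%. The difference of Scn4b was a log2 of 4.54 in labelled striatum and 4.51 in labelled cortex, females minus males. That of Scn1a in labelled cortex was 0.90 (SE 0.21, adjusted p = 0.0056 in limma). Labelled sex and class coincide among these Δ12/Δ12 libraries and cannot be told apart.

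In the libraries labelled Δ12/+, no member was called against +/+, and the comparison shares its +/+ libraries with that of Δ12/Δ12. In labelled striatum 0.00663% of 15077 entries were called, and 475 entries and 0 members had an unadjusted p under 0.05. Scn2b had the smallest p (log2 0.19, adjusted p = 1.0 in limma), and the 6 log2 fold changes ran from −0.11 to 0.40. In labelled cortex 0.053% of 15095 entries were called, and 1313 entries had an unadjusted p under 0.05. Scn8a had the smallest p there (log2 −0.19, adjusted p = 0.69), with a 95% interval from −0.46 to 0.09, and the 6 values ran from −0.22 to 0.33. All these libraries were cortex-like.

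**Figure D3:**
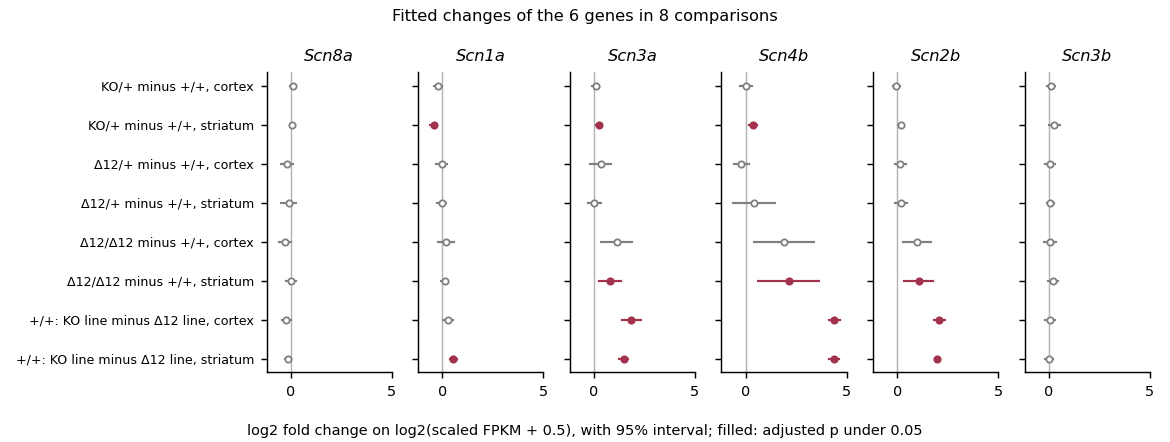
Log2 fold change of each gene, on the log2(scaled FPKM + 0.5) scale, in 8 comparisons of 6 against 6 libraries with 95% intervals, filled where the adjusted p of limma was under 0.05. The lower rows, where the groups differ in class, hold the large values of Scn4b (4.37 and 4.40), and Scn1a is lower in KO/+ libraries labelled striatum (−0.44).

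The KO line compared mice with 1 disrupted Htt allele with +/+ mice, and all of its libraries were striatum-like. In libraries labelled striatum, Scn1a fell and Scn4b and Scn3a rose in KO/+, beside 8.17% of 15808 entries called. Scn1a was 24.8, 20.0 and 17.5 scaled FPKM in the +/+ males, 20.4, 23.7 and 23.4 in the +/+ females, 13.8, 16.9 and 15.1 in the KO/+ males, and 15.5, 16.9 and 16.5 in the KO/+ females. Every KO/+ library was below every +/+ library, and the means were 21.6 ± 2.80 and 15.8 ± 1.22 (SD, n = 6). The log2 fold change was −0.44 (SE 0.081, 95% interval −0.61 to −0.26, adjusted p = 0.0083 in limma), and it stayed called without any 1 library, with values from −0.49 to −0.38.

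Scn4b was 121, 128 and 150 scaled FPKM in the +/+ males, 151, 188 and 144 in the +/+ females, 154, 163 and 202 in the KO/+ males, and 205, 225 and 194 in the KO/+ females. The genotypes did not overlap within a labelled sex but did across sexes. The log2 fold change was 0.38 (SE 0.089, adjusted p = 0.024 in limma). Scn3a was 9.83, 9.99 and 10.6, then 8.38, 10.4 and 9.42 in +/+, and 11.4, 12.1 and 10.3, then 12.1, 11.7 and 11.7 in KO/+. Of the KO/+ libraries, 5 were above all +/+ libraries and 1 was within their range (log2 0.23, SE 0.064, adjusted p = 0.045). Scn2b was 55.8 to 66.0 in +/+ and 55.6 to 75.7 in KO/+, where 4 libraries were above the +/+ range and 1 below it (log2 0.17, adjusted p = 0.15). Scn3b was 13.6 to 20.6 and 14.0 to 23.9 (log2 0.27, adjusted p = 0.24), and Scn8a was 30.9 to 38.7 and 34.6 to 38.2 (log2 0.05). These 3 did not pass the test.

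The number of members called depended on which libraries entered. The count was 1 without any of +/+ male 1, +/+ female 1, +/+ female 3 or KO/+ female 2, and Scn1a was called in all 12 fits that left out 1 library. Scn3a lost its call in 9 of these 12 fits, with adjusted p of up to 0.0999 in limma, and Scn4b in 4. On FPKM as deposited Scn1a alone was called, with a log2 fold change of −0.53 (adjusted p = 0.016 in limma), beside 348 of 15500 entries. Without the 3 KO/+ libraries whose Htt lay in the +/+ range, a fit chosen after the data were seen, 0 members and 60 entries were called, with log2 fold changes of −0.40 for Scn1a, 0.31 for Scn4b and 0.30 for Scn3a (adjusted p = 0.13, 0.18 and 0.11 in limma). The 3 KO/+ libraries kept in that fit had 16.9, 15.5 and 16.5 scaled FPKM of Scn1a and those left out had 13.8, 15.1 and 16.9.

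Marker genes of several cell types moved with the members in this comparison. All 8 striatal projection markers were called higher in KO/+ (Ppp1r1b, log2 0.52), and their summed level was 848 to 1238 in +/+ and 1259 to 1597 in KO/+. Of 7 cortical excitatory markers, 1 was called higher, and the median log2 fold change of that list was 0.70. Slc17a7 was 32.4 to 35.2 scaled FPKM in KO/+ males and 10.3 to 12.9 in +/+ males. In KO/+ and +/+ females it was 6.86 to 10.6 and 9.68 to 25.5. The oligodendrocyte genes Mog (−0.42) and Mobp (−0.26) were called lower, and Mbp, not in the fit, had 1009 to 1280 scaled FPKM in 5 +/+ libraries and 889 to 965 in the KO/+ libraries. Pvalb was called lower, with a log2 fold change of −0.90, as the only 1 of 4 interneuron markers, and the astrocyte gene Aqp4 was lower (−0.58, 1 of 4). Of the channel partners, Fgf12 (−0.26, 1 of 4), Cntn2 (−0.27) and Nfasc (−0.23, 2 of 11 in all) were lower, and 0 of the 3 other alpha genes tested were called. The part of these cell types in the members' changes was not tested.

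In libraries labelled cortex of the KO line, no member was called beside 0.114% of 15820 entries, and 2236 entries and 1 member had an unadjusted p under 0.05. That member was Scn1a, with 16.4 to 20.2 scaled FPKM in +/+ (17.9 ± 1.38) and 11.8 to 19.3 in KO/+ (15.7 ± 2.46, SD, n = 6). Of the KO/+ libraries, 5 were below all +/+ libraries. The log2 fold change was −0.20 (SE 0.090, adjusted p = 0.34 in limma), and those of the other members ran from −0.05 to 0.10. No marker or partner gene of the lists was called. The difference of the KO/+ effect between the labelled tissues was tested, and 0 of 15917 entries were called, members included. Without the labelled mouse as a block, Scn2b and Scn4b had unadjusted p of 0.041 and 0.0496 in limma (log2 0.23 and 0.36). With that block the unadjusted p were 0.067 and 0.077 in limma.

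**Figure D4:**
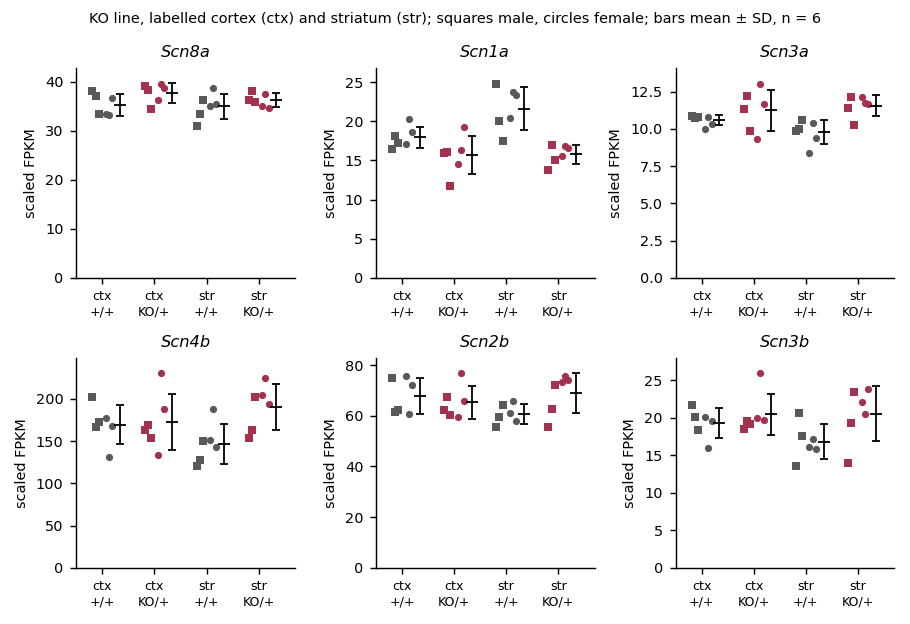
Scaled FPKM of the 6 genes in the 4 labelled groups of the KO line, with squares for labelled males, circles for labelled females, and bars for mean ± SD of 6 libraries. Scn1a in labelled striatum is lower in every KO/+ library (mean 15.8) than in every +/+ library (mean 21.6), and the other panels overlap.

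The +/+ mice of the 2 lines carry no edited Htt allele, and their libraries differed in class in both labelled tissues. In labelled striatum, 4 members were called higher in the KO line beside 79.3% of 15712 entries: Scn4b (log2 4.37), Scn2b (1.98), Scn3a (1.47) and Scn1a (0.54). Scn3b (0.02) and Scn8a (−0.14) did not pass the test. In labelled cortex, 3 were called beside 68.0% of 15800 entries, Scn4b (4.40), Scn2b (2.07) and Scn3a (1.85), and Scn1a (0.26, adjusted p = 0.061 in limma), Scn8a (−0.22, adjusted p = 0.063) and Scn3b (0.05) did not pass. Line and class cannot be told apart in these comparisons.

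Within a class, the members were set against Mbp and Slc17a7 over libraries, 24 relations in all, and 7 had an adjusted p under 0.05. Slc17a7, used in 12 of the relations, is also the gene that defined the classes, so its range within a class is cut at 100 FPKM. Scn1a was higher where Mbp was higher among 29 striatum-like libraries (Pearson r = 0.732, permutation p = 4.0e-05, adjusted 0.00096; Spearman rho = 0.801, permutation p = 1e-05, the smallest that 100000 resamples can give). It was 0.731 without the 2 libraries farthest from the median of Mbp. Part of the relation lay between labelled groups, since r was 0.395 with the groups regressed out (adjusted permutation p = 0.082). In the cortex-like class the r of Scn1a with Mbp was −0.214.

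**Figure D5:**
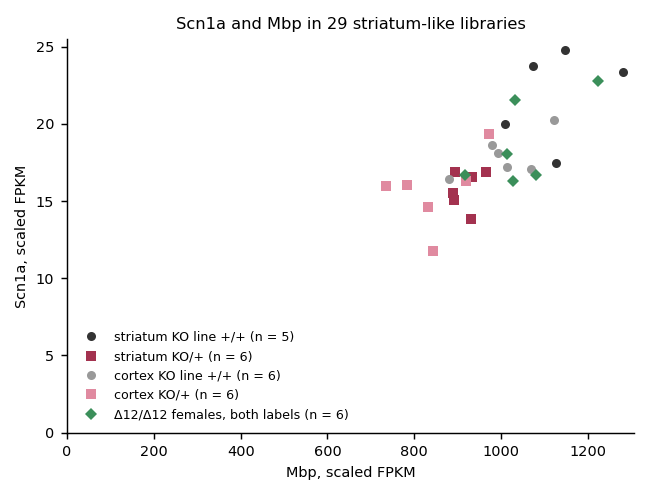
Scn1a against Mbp, both in scaled FPKM, in 29 striatum-like libraries, with colour and shape for the labelled group. Libraries labelled striatum KO line +/+ lie to the upper right and KO/+ libraries to the lower left (r = 0.732 on the log2 scale).

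Scn2b was higher where Mbp was higher in the 30 cortex-like libraries (r = 0.612, adjusted permutation p = 0.012; rho = 0.713), with 0.594 without the 2 farthest libraries and 0.662 with the groups regressed out. Scn8a and Scn3b were lower where Mbp was higher, with r of −0.548 and −0.497 in the cortex-like and −0.511 and −0.469 in the striatum-like class (adjusted permutation p = 0.017, 0.023, 0.023 and 0.033). With the labelled groups regressed out, r was −0.567 and −0.672 in the cortex-like class but −0.172 and −0.181 in the striatum-like class (adjusted permutation p = 0.47 and 0.46), where the relations no longer passed. Without the 2 libraries farthest in Mbp, r was −0.425 and −0.459 in the cortex-like class (adjusted permutation p = 0.097 and 0.072). In the striatum-like class it was then −0.508 and −0.497 (adjusted permutation p = 0.048 for each). None of the 4 relations passed on FPKM as deposited, where r was 0.290 for Scn8a and 0.12 for Scn3b in the striatum-like class. Scn4b was lower where Slc17a7 was higher in the cortex-like class (r = −0.623), which is given as a description, and r was −0.219 without 2 libraries and rho −0.151, so that it rests on those libraries. Depth was shared by all genes of a library in each of these relations.

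Over all 60 libraries, the entries most like each member (up to 3) by Pearson r, among 14219 entries with a mean of at least 1 scaled FPKM, were named as a description, since libraries of a class share their level. They were Rasd2 (0.997), Pde10a (0.997) and Strn (0.996) for Scn4b, Arhgdia (0.991), Dlgap3 and Grina (both 0.990) for Scn2b, and Fam120a (0.982), Ncoa1 (0.981) and Ercc6 (0.978) for Scn3a. Likeness was lower for the members with overlapping classes: Vamp1 (0.837), Lgi3 (0.811) and Rora (0.792) for Scn1a, Madd (0.638) and Plcb1 (0.591) for Scn8a, and Tspyl5 (0.631), Prkacb and Nanos1 (both 0.613) for Scn3b. With deviations from the class medians, Scn4b was still most like Rasd2 (0.949), Pde10a (0.934) and Strn (0.913), and Scn2b like Arhgdia (0.770), Grina (0.759) and Dlgap3 (0.756). Scn1a was then most like Ttll7 (0.772), Rora (0.768) and Vamp1 (0.766). Scn3a was nearest to Ncoa1 (0.762), Fam120a (0.759) and Avl9 (0.743), Scn8a to Sptbn4 (0.664) and, among others, Inpp4a (0.655), and Scn3b to Fibcd1 (0.670), Klf16 (0.665) and Sh3bp1 (0.656). Sptbn4 encodes the beta spectrin of the initial segment, on which the channels are anchored.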

How the data were processed

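RNA was extracted from mouse brain tissue (RNeasy), depleted of ribosomal RNA, made into stranded libraries (NEBNext Ultra II Directional) and sequenced on a NovaSeq. The submitters' processing notes list bcl2fastq 2.20, Trimmomatic 0.30, TopHat2 2.0.14, SAMtools 1.3, HTSeq 0.6.1p1 and GRCm38.p4. The authors deposited 1 table of FPKM per library in a Cufflinks-like layout with confidence intervals, and no counts. Of 47597 entries, the 23 whose FPKM estimate did not have the status OK everywhere were dropped. Mbp, which failed in 1 library, was kept as a marker in the others.

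FPKM were divided by the median ratio to the geometric mean over 13235 entries above 0 in all libraries (factors 0.761 to 1.38). The 10 highest entries held 56.1% to 92.3% of the FPKM of a library, so such scaling can change small differences. Interval bounds gave an estimated depth of 12.8 M to 27.5 M fragments per library. Depth differed by class, with 12.8 M to 19.5 M (median 14.5 M) in the cortex-like and 16.4 M to 27.5 M (median 18.3 M) in the striatum-like libraries. These depths are an approximation, as 29.0% of values with 20 to 200 fragments came out whole within 0.05. No 2 libraries held identical values.

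Tests used limma 3.58.1 in R 4.3.3 (eBayes with trend) on log2(scaled FPKM + 0.5), a scale that understates changes of low genes, with labelled sex as covariate, the 12 libraries of the groups compared, a mean of at least 0.5, and Benjamini-Hochberg adjustment over all entries. Adjusted p under 0.05 was called. Relations between genes were tested by permutation (numpy 2.4.6, two-sided). The script was tested on simulated data.

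The members and lists were chosen with earlier results of these data known. Named genes are the members, fixed lists of channel partners and cell type markers, and the 3 entries most like each member. Some genes that this rule names are not reported here. Alternatives were FPKM as deposited, a pseudocount of 0.1, no filter, no sex term, class as covariate, a replicate block, and each library left out. Sex by Xist and Ddx3y, KO/+ libraries with lower Htt, and a mouse block for differences between tissues were added after the data were seen. The library striatum KO/+ female 3 has a title that names the other line, and was grouped by its genotype label.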

Additional observations from a re-analysis of the deposited data

Results flagged for a closer look

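Of 60 sets of 6 libraries, 1 per member and labelled group, 4 held a library far from the other 5 by Dixon's test, where chance gives about 1 in 20. In libraries labelled striatum Δ12/+, male 3 had 29.3 scaled FPKM of Scn2b and 44.1 of Scn4b, against 13.5 to 17.6 and 4.29 to 18.4 in the others. Female 3 of the same group had 59.8 scaled FPKM of Scn8a, against 25.3 to 38.1. In libraries labelled cortex KO/+, female 2 had 25.9 scaled FPKM of Scn3b, against 18.5 to 20.0. That library also had the highest Scn4b (230) and Scn2b (76.8) and the highest Drd1 and Drd2 of the striatum-like class.

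The change from +/+ to Δ12/Δ12 differed between the labelled sexes in 7 tests of members. Of all entries, 55.9% of 15467 in labelled striatum and 44.2% of 15696 in labelled cortex were called in the same tests. Females minus males, the log2 difference was 4.54 for Scn4b, 2.16 for Scn2b and 1.49 for Scn3a in labelled striatum, and 4.51 for Scn4b, 1.93 for Scn2b, 1.65 for Scn3a and 0.90 for Scn1a in labelled cortex. The males were cortex-like and the females striatum-like in every one of these 12 Δ12/Δ12 libraries, so that sex and class cannot be told apart.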

How the results depend on the processing

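Over 140 comparisons of 22 named log2 fold changes with another setting, 109 kept direction and side of the threshold, 25 lost the call, 2 gained it and 4 turned direction. Counts of members called are of 6. In labelled striatum, Δ12/Δ12 against +/+ gave 3, then 1 on FPKM as deposited and 0 with no filter, without sex, with sex by Xist and Ddx3y, with the class as covariate and with the replicate block. Entries called in these fits, in order, were 4443 of 15467, 4391 of 15663, 1412 of 26461, and 9, 7, 19 and 5 of 15467. Leaving out a library gave 0 to 3 members, with 0 without any 1 of the 6 labelled females. With the class, where labelled males alone estimate the genotype, Scn2b (−0.021) and Scn4b (−0.14) turned. KO/+ against +/+ in labelled striatum gave 3, then 1 on FPKM as deposited, 0 without the KO/+ libraries with Htt in the +/+ range, 2 with the replicate block, and 1 to 4 with a library left out. Entries called were 1292 of 15808, 348 of 15500, 60 of 15755 and 697 of 15808 in the first 4 of these. Δ12/Δ12 in labelled cortex gave 0 to 3 members with a library left out. Shares of all entries called in fits with a library left out are not given here. Between the lines, Scn3b turned to −0.30 in labelled striatum and −0.20 in labelled cortex on FPKM as deposited, and ran from −0.058 to 0.072 and from −0.028 to 0.11 with a library left out. Ratios of class medians turned to 0.914 for Scn1a and 0.793 for Scn3b on FPKM as deposited. Relations with Mbp and Slc17a7 fell from 7 to 2 on FPKM as deposited and to 4 without the 2 farthest libraries, and with the groups regressed out 8 passed, 4 of the 7 and 4 others. In the striatum-like class these others were Scn3a (r = −0.650, adjusted permutation p = 0.0006) and Scn4b (−0.439) with Slc17a7. In the cortex-like class they were Scn2b with Slc17a7 (−0.495) and Scn4b with Mbp (0.503). The causes were not tested. Same-numbered libraries did not deviate together (mean correlations −0.091 to 0.0079 between genotypes and lines, and −0.0074 over 30 pairs of labelled cortex and striatum, over 0.1 in 3), so the replicate numbers were not taken as pairs. With the labelled mouse as a block, 0 entries and 0 members were called between the labelled tissues, and 886 entries had an unadjusted p under 0.05. No member was called in the difference of a genotype effect between tissues. Entries called there were 1 of 15694 for Δ12/Δ12, 0 of 15173 for Δ12/+ and 0 of 15917 for KO/+. FPKM hold no counts, so depth limits low values such as cortex-like Scn3a in ways that could only be estimated from the intervals.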

Other observations

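The 2 members that lie 8.37 kb apart on chromosome 9 varied together within the striatum-like class. Scn2b and Scn4b had a Pearson r of 0.863 over 30 striatum-like and 0.599 over 30 cortex-like libraries. Scn2b with Scn3b had 0.777 and −0.226, and Scn3b with Scn4b 0.699 and −0.337. Scn1a had negative values with all 5 other members in the striatum-like class, from −0.450 with Scn3b to −0.264 with Scn2b. In the cortex-like class, the library labelled striatum Δ12/+ male 3 had both the highest Scn2b (29.3) and the highest Scn4b (44.1). Values of r without it were not computed. The libraries share depth and scaling, and these values are a description. Of the genes within 100 kb of Scn2b and Scn4b with at least 0.5 scaled FPKM, Mpzl3 had class medians of 1.36 and 0.984, cortex-like first, and Il10ra had 0.562 and 0.908, whereas those of Scn2b were 15.4 and 62.2.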
